A study of Mus musculus with 6 samples.

Results

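The 10 immediate-early genes described here were read in livers of mice that lack NEK7 in hepatocytes and in livers of WT mice: the JUN family genes Jun, Junb and Jund, the FOS family genes Fos, Fosb and Fosl2, and Egr1, Atf3, Ier3 and Myc. They were taken by gene symbol, and all 10 had a row among the 17975 genes of the deposited expression table and passed the filter on low counts, as did 13805 genes in all. RNA was sequenced from whole liver tissue of 3 WT mice and 3 Hom mice, 1 liver per mouse, all on a C57BL/6 background. Hom mice were NEK7 fl/fl-Alb-Cre(+), so Cre came from the albumin promoter, which is active in hepatocytes. The labels call the controls only WT. The paper describes a cross of NEK7 fl/fl with Alb-Cre mice, and its text does not say whether each control carried a floxed allele or Cre. Neither the age nor the sex of the sequenced mice is given in the labels.

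Immediate-early genes are switched on within minutes of a stimulus, without new protein synthesis, through MAP kinases and the factors SRF, ELK and CREB. JUN and FOS proteins pair through leucine zippers to form AP-1, which binds TGAGTCA and related sites, and JUN proteins can also pair with ATF proteins. In the liver, c-Jun is known for its part in hepatocyte survival and regeneration, and MYC, which pairs with MAX, drives genes of ribosome production and growth.

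In Hom livers 7 of the 10 genes were higher than in WT livers: Atf3 by 6.86-fold in mean CPM, Ier3 by 4.90-fold, Jun by 2.99-fold, Fosb by 2.66-fold, Junb by 1.72-fold, Fosl2 by 1.42-fold and Jund by 1.41-fold. None was lower by edgeR or by DESeq2, and none had a log2 fold change below 0. Egr1 and Myc had higher means in Hom livers but did not pass the test, and Fos, the gene that names its family, had overlapping values in both groups. CPM here are counts divided by the library total and by a TMM factor, a value per library that brings the bulk of genes to a common level, and a gene was called when edgeR's quasi-likelihood test gave a Benjamini-Hochberg adjusted p under 0.05 over all 13805 genes. By that rule 2974 genes, or 21.5% of those tested, were higher in Hom livers and 2780, or 20.1%, were lower. The log2 fold changes of the 10 genes had a median of 1.01, against -0.0018 over all tested genes.

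Estimated counts totalled 19349418 to 19730236 per liver, so depth was nearly even. TMM factors were below 1 in all 3 WT livers and above 1 in all 3 Hom livers, and scaling by library size alone moved the median over all genes up by 0.45 on the log2 scale, with 47.6% of genes then higher and 4.65% lower. On that scale 9 of the 10 genes were higher, all but Fos. Nek7 itself had estimated counts of 1127, 1077 and 1036 in WT livers and 310, 439 and 387 in Hom livers. On the log2 scale this was a difference of -1.99 ± 0.10 (SE, n = 3 per group, edgeR adjusted p = 1.59e-04). Hom replicate 1 had 0 counts of the Y-linked genes Ddx3y and Kdm5d, which were read in every other liver. Without that liver 6 of the 10 genes were higher, beside 19.2% of 14077 genes tested, and the call that was lost was that of Jund.

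Sequence upstream of the start site is shown for the 5 genes whose 250 bases before the RefSeq start (GRCm38.p6) held a letter match for a site that ATF, CREB or AP-1 proteins are known to bind or for a TATA box. Sequences were found for 8 of the 10 genes, not for Egr1 and Myc. Capitals mark TGACG on either strand, which is part of the cyclic AMP response element, TGACATCA, an AP-1 site known from the Jun promoter itself, and TATAAA. Each runs 5′ to 3′ on the strand of the gene and ends at the base before the start.
Atf3, chr1:191183334-191183583, minus strand: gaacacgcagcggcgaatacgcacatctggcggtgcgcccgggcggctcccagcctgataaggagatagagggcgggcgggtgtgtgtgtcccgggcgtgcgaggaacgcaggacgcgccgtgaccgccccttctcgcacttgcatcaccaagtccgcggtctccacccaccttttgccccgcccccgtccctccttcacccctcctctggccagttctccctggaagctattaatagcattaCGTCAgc
Jun, chr4:95052223-95052472, minus strand: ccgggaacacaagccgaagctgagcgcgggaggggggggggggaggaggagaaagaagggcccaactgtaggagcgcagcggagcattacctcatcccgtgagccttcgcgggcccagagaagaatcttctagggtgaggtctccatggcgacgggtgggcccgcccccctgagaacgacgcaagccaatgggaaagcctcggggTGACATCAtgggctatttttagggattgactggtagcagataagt
Junb, chr8:84978749-84978998, minus strand: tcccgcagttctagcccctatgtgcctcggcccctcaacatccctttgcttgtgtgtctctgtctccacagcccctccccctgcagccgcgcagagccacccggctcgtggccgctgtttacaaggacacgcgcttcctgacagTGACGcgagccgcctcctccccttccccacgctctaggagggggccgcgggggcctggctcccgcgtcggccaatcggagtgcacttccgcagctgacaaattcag
Fosb, chr7:19310046-19310295, minus strand: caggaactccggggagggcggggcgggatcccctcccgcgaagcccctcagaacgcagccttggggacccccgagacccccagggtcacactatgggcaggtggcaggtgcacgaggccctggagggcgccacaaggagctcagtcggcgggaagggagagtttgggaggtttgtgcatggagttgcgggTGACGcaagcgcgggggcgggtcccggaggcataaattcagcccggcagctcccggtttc
Fos, chr12:85473640-85473889, plus strand: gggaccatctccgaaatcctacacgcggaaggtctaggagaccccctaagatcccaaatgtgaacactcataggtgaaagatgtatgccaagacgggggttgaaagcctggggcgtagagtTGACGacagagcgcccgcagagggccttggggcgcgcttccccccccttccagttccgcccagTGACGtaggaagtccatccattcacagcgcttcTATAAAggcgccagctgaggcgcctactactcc
The first base of TGACG (or of CGTCA, the same letters on the other strand) lay 7 bases upstream of the start in Atf3, 106 in Junb, 60 in Fosb, and 129 and 66 in Fos, so 4 of the 8 promoters held it, against 17.9% of 27025 mouse promoters of the same length. The 4 promoters with TGACG had a GC content of 58.4% to 68.8%, against a median of 52% over all promoters, and promoters of like GC content were not compared. TGACATCA lay 45 bases upstream in Jun and is present in 3.02% of all promoters. TATAAA was matched in Fos at 33 bases and is present in 13.0% of all promoters. TGAGTCA or its reverse TGACTCA (4.43% of promoters), TGACGTCA (1.62%, which contains TGACG) and the E-box CACGTG that MYC and MAX bind (6.05%) were in none of the 8. Of the 4 genes with TGACG, Atf3, Junb and Fosb were higher in Hom livers and Fos did not pass the test, and Jun, Ier3, Jund and Fosl2 were higher without it.

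Atf3 and Ier3 had the largest differences. Atf3 encodes a stress-induced ATF family factor that forms dimers with JUN proteins or with itself. Atf3 stood at 2.01, 1.41 and 0.614 CPM in WT livers and at 10.1, 9.44 and 8.10 CPM in Hom livers. Even the lowest Hom liver was far above the highest WT liver, and WT replicate 3 was the lowest of all. Mean CPM was 1.35 ± 0.700 in WT and 9.22 ± 1.03 in Hom livers (SD, n = 3), a log2 fold change of 2.76 ± 0.37 (SE, edgeR adjusted p = 0.00187). Only 2.46% of tested genes had a log2 fold change as high. Ier3, whose product is an early response protein involved in cell survival and not a transcription factor, stood at 1.62, 0.834 and 1.54 CPM in WT livers and at 6.25, 5.90 and 7.41 CPM in Hom livers. The groups were well apart, with WT replicate 2 the lowest. Ier3 thus differed by a log2 fold change of 2.28 ± 0.28 (SE, edgeR adjusted p = 0.00140), from 1.33 ± 0.432 to 6.52 ± 0.794 CPM (SD, n = 3).

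**Figure D1:**
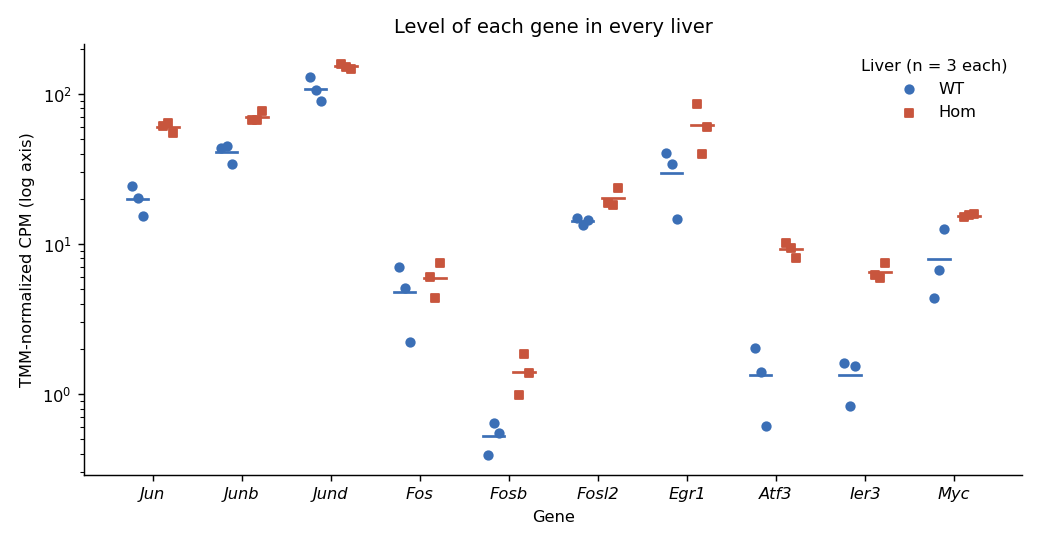
TMM-normalized CPM of the 10 genes (x axis) in each liver, on a log y axis, with circles for WT livers, squares for Hom livers and a bar at each group mean (n = 3 per group). Hom livers lie above all WT livers for 8 genes, and the groups overlap for Fos and Egr1.

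All 3 JUN family genes were higher in Hom livers, by unequal amounts. Jun encodes c-Jun, the strongest activator of the family. Jun stood at 24.4, 20.3 and 15.3 CPM in WT livers and at 60.8, 63.7 and 55.0 CPM in Hom livers. No Hom liver came near the WT range. The log2 fold change of Jun was 1.58 ± 0.17 (SE, edgeR adjusted p = 8.95e-04), from 20.0 ± 4.56 to 59.8 ± 4.47 CPM (SD, n = 3). Junb, which codes for a partner that is often a weaker activator than c-Jun, stood at 43.5, 45.1 and 33.9 CPM in WT livers and at 66.8, 67.3 and 76.6 CPM in Hom livers. Again WT replicate 3 was lowest and the groups were apart. This made a log2 fold change for Junb of 0.78 ± 0.13 (SE, edgeR adjusted p = 0.00365), from 40.8 ± 6.08 to 70.2 ± 5.49 CPM. Jund is the family member that is read in most resting tissues. Jund stood at 129, 106 and 90.3 CPM in WT livers and at 159, 151 and 147 CPM in Hom livers. WT replicate 1 was close to the Hom range, though below it. The log2 fold change of Jund was 0.49 ± 0.14 (SE, edgeR adjusted p = 0.0260), from 108 ± 19.5 to 152 ± 6.34 CPM. The call on Jund was lost when WT replicate 2, WT replicate 3 or any 1 of the Hom livers was left out, with adjusted p between 0.058 and 0.087.

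Within each liver the makeup of the JUN family was compared per length, as shares of TPM, which the scaling of a library does not affect. Jun took 10.0%, 9.36% and 8.76% of JUN family TPM in WT livers and 17.2%, 18.2% and 15.6% in Hom livers. Jund took 58.7%, 54.1% and 57.3% in WT and 49.8%, 48.0% and 46.3% in Hom livers. For both genes the groups did not overlap, with means of 9.37% ± 0.624 and 17% ± 1.32 for Jun and of 56.7% ± 2.35 and 48.0% ± 1.79 for Jund (SD, n = 3). The exact permutation test gave p = 0.1 for each, the smallest that 3 against 3 livers allow, and 0.233 after adjustment over 7 shares, so neither could pass 0.05. The Junb share was 33.9% ± 2.62 in WT and 35.0% ± 2.76 in Hom livers, with overlapping values. The log2 ratio of Jun to Jund lay between -2.71 and -2.53 in WT livers and between -1.57 and -1.40 in Hom livers, a difference of 1.10 (exact permutation p = 0.1, adjusted p = 0.175 over 7 ratios). The log2 ratio of Jun to Junb was 0.81 higher in Hom livers, also without overlap (exact p = 0.1), while that of Junb to Jund differed by 0.28 with overlap (exact p = 0.2).

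**Figure D2:**
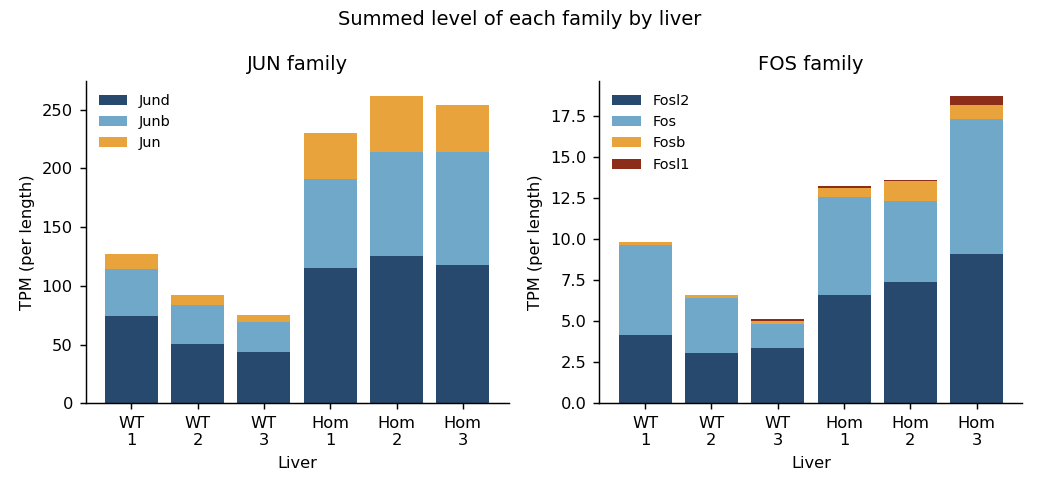
Deposited TPM (y axis, starting at 0, each panel with its own scale) of the JUN family (left) and the FOS family (right) in each liver, stacked by gene. Jun takes at most 10.0% of the JUN family in a WT liver and at least 15.6% in a Hom liver, and Fosb and Fosl1 are thin layers of the FOS family.

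FOS proteins form AP-1 with JUN proteins and cannot pair with themselves. Fosl2 and Fosb were higher in Hom livers, and Fos did not pass the test. Fosl2, which encodes FRA-2, stood at 14.8, 13.4 and 14.5 CPM in WT livers and at 18.9, 18.3 and 23.4 CPM in Hom livers. The WT livers lay close together and below every Hom liver, of which replicate 3 was highest. Fosl2 rose by a log2 fold change of 0.50 ± 0.12 (SE, edgeR adjusted p = 0.0174), from 14.2 ± 0.734 to 20.2 ± 2.84 CPM (SD, n = 3). Its call was lost without Hom replicate 3 (0.38, adjusted p = 0.056) and without WT replicate 2 (0.46, adjusted p = 0.065). Fosb, which codes for a close relative of c-Fos, had few reads, with estimated counts of 7, 10 and 9 in WT livers and 21, 45 and 32 in Hom livers. These made 0.391, 0.641 and 0.553 CPM in WT livers and 0.980, 1.86 and 1.38 CPM in Hom livers, with no overlap. For Fosb the log2 fold change was 1.41 ± 0.37 (SE, edgeR adjusted p = 0.0218). Leaving out WT replicate 1, WT replicate 3, Hom replicate 2 or Hom replicate 3 took Fosb out of the called genes, with adjusted p between 0.054 and 0.096.

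Fos encodes c-Fos, the classical fast and short-lived response gene. Fos stood at 6.98, 5.07 and 2.21 CPM in WT livers and at 6.02, 4.37 and 7.46 CPM in Hom livers. WT replicate 1 exceeded 2 of the 3 Hom livers. Means were 4.75 ± 2.40 and 5.95 ± 1.54 CPM (SD, n = 3), a log2 fold change of 0.32 ± 0.41 (SE) with a 95% interval from -0.64 to 1.28 (edgeR adjusted p = 0.555). The interval contains 0 as well as the values of Junb, Jund and Fosl2, so a difference of their size was neither shown nor excluded for Fos. The difference rested on WT replicate 3, without which it was -0.027. Jun relative to Fos was nonetheless higher in every Hom liver: the log2 ratio on TPM was 1.2, 1.39 and 2.19 in WT livers and 2.73, 3.26 and 2.27 in Hom livers (exact permutation p = 0.1, adjusted p = 0.175 over 7 ratios). The lowest Hom value was barely above the highest WT value. The ratios of Fosl2 to Fos (difference 0.053, exact p = 1) and of Fosb to Fos (0.92, exact p = 0.4) overlapped between groups. Fosl1, the FOS family gene outside the 10, had at most 9.12 estimated counts in any liver and was not tested.

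Egr1 and Myc had higher means in Hom livers without passing the test. Egr1 codes for a zinc finger factor that responds to growth factors through SRF and ELK proteins. Egr1 stood at 40.6, 34.1 and 14.6 CPM in WT livers and at 85.0, 39.7 and 60.4 CPM in Hom livers. Hom replicate 2 fell just below WT replicate 1, so the groups overlapped by that pair. For Egr1 the log2 fold change was 1.05 ± 0.41 (SE, edgeR adjusted p = 0.0762, 95% interval 0.088 to 2.01), from 29.8 ± 13.6 to 61.7 ± 22.7 CPM (SD, n = 3). Myc encodes the growth-promoting factor c-MYC. Myc stood at 4.36, 6.73 and 12.7 CPM in WT livers and at 15.0, 15.6 and 15.7 CPM in Hom livers. The Hom livers were nearly equal, while WT replicate 3 was close to them. The log2 fold change of Myc was 0.97 ± 0.35 (SE, edgeR adjusted p = 0.0595, 95% interval 0.15 to 1.78), from 7.92 ± 4.28 to 15.5 ± 0.380 CPM, and without WT replicate 3 it was 1.48 (adjusted p = 0.0052). DESeq2 on the same counts called both genes, Egr1 with an adjusted p of 0.0152 and Myc with 0.0187, and so counted 9 of the 10 genes higher, beside 22.3% of all tested genes.

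**Figure D3:**
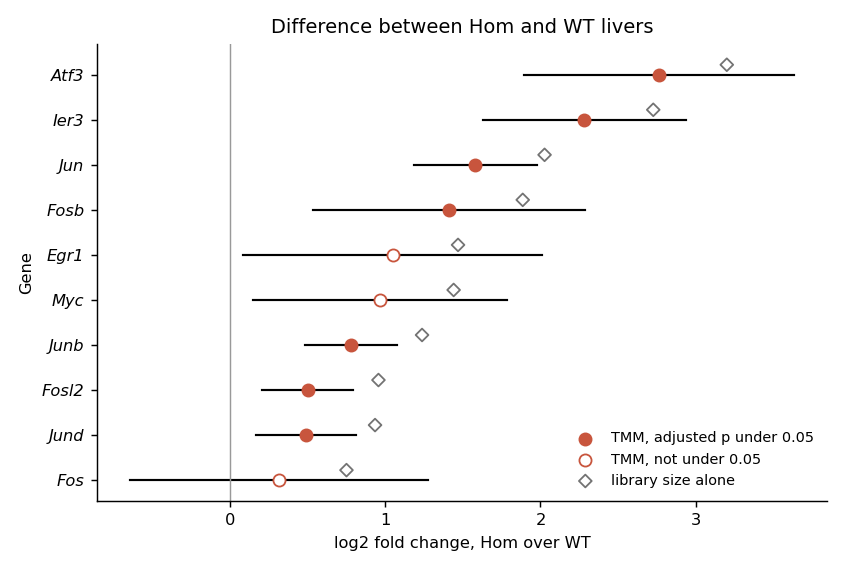
log2 fold change of Hom over WT livers (x axis) for each gene (y axis), with circles for the TMM-scaled fit, filled where the edgeR adjusted p was under 0.05, lines for its 95% interval, and diamonds for scaling by library size alone. The interval of Fos spans 0, from -0.64 to 1.28, and every diamond lies to the right of its circle.

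For 8 of the 10 genes, all but Fos and Egr1, every Hom liver was above every WT liver, an order that 28.7% of all tested genes showed. For each of these 8 genes taken alone, the exact permutation test gave p = 0.1, which is the smallest value 3 against 3 livers can give, against 0.6 for Fos and 0.2 for Egr1. Leaving out any 1 liver left Jun, Junb, Atf3 and Ier3 called in every case.

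WT livers varied more among themselves than Hom livers in these genes. The SD of log2 CPM was larger in WT than in Hom livers for 8 of the 10 genes, all but Fosb and Fosl2, and for 59.6% of all tested genes. It was 0.76 in WT and 0.035 in Hom livers for Myc, 0.80 and 0.16 for Atf3, and 0.83 and 0.38 for Fos. The median over all tested genes was 0.18 in WT and 0.15 in Hom livers, which 9 of the 10 genes exceeded in WT and 6 in Hom livers. Egr1 (0.79 and 0.55) and Fosb (0.30 and 0.43) were among those above it in both groups. WT replicate 1 was the highest WT liver for 7 of the 10 genes, and WT replicate 3 was the lowest for Jun, Junb, Jund, Fos, Egr1 and Atf3. Over all tested genes these 2 positions were held by WT replicate 1 for 38.6% and by WT replicate 3 for 33.8%. Myc ran the other way, with WT replicate 3 its highest and WT replicate 1 its lowest WT liver.

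**Figure D4:**
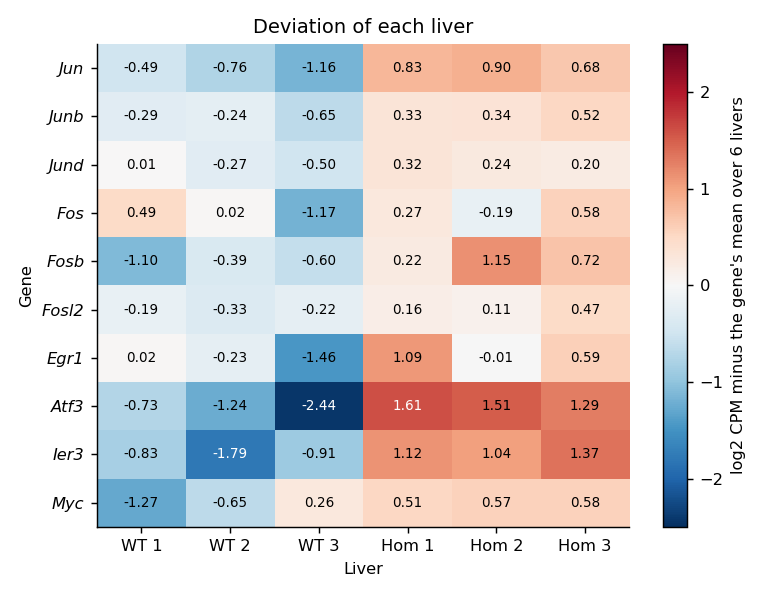
log2 CPM of each gene (y axis) in each liver (x axis) minus the mean of that gene over the 6 livers, with red for values above the mean and blue for values below it. WT 3 holds the lowest value of Atf3, at -2.44, and of Egr1, at -1.46, but not of Myc, at 0.26, and Hom 2 is near the mean for Egr1.

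Compared per length, on TPM, Jund was the most abundant of the 10 in both groups and Fosb the least. In WT livers the order was Jund (56.0 TPM), Junb (33), Egr1 (14.5), Jun (9.32), Myc (4.73), Fosl2 (3.54), Fos (3.43), Ier3 (1.87), Atf3 (1.04) and Fosb (0.207). From Egr1 down to Atf3 each neighbour's range over 3 livers overlapped the next, so that part of the order was not resolved. In Hom livers Jund (119 TPM), Junb (87.0), Egr1 (44.5) and Jun (42.3) again led, with Egr1 and Jun overlapping. Ier3 (13.9 TPM) then stood beside Myc (14.6) and Atf3 (10.6), and these 3 were above Fosl2 (7.71) and Fos (6.38) without overlap. TPM carry no TMM factor, so levels on this scale rose between groups by more than on CPM.

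The genes with the profile closest to each of the 10 were found by the root-mean-square difference of centred log2 CPM over the 6 livers, among 9964 genes with a mean of at least 5 CPM. This is a description over 6 livers that share the group difference. For Jun these were Cd93 (0.093) and Cd207 (0.099), for Jund Il17ra (0.029) and Cyb5r1 (0.040), for Junb Akap2 (0.072) and Angptl2 (0.072), and for Fosl2 Ccdc32 (0.051) and Manba (0.056). Those of Atf3 were Specc1 (0.17) and Elapor1 (0.25), those of Ier3 Adgrg1 (0.10) and Frk (0.11), and those of Fosb Slc29a3 (0.15) and Trim12c (0.17). The most distant nearest profiles were those of Fos, which were Fbf1 (0.21) and Zfp612 (0.26). Egr1 was nearest to Fbln5 (0.18) and Prox1 (0.25), and Myc to Antxr1 (0.16) and Gsn (0.19). Among the 10 genes themselves the closest pairs were Junb with Jund (0.196) and Jund with Fosl2 (0.200).

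The other AP-1 and ATF family genes had a median below that of all tested genes with either scaling. Over all tested genes 21.5% were higher and 20.1% lower by TMM, and the median was -0.0018 by TMM and 0.45 by library size alone. Of 19 listed relatives 18 were tested, 2 were higher (11.1%) and 6 lower (33.3%), with a median log2 fold change of -0.11 by TMM, against 5 higher, 3 lower and a median of 0.35 by library size alone. Creb5 rose from 0.441 to 2.19 CPM, a log2 fold change of 2.30 ± 0.42 (SE, edgeR adjusted p = 0.00601), and Mafk by 0.56 ± 0.18 (adjusted p = 0.0419), a call that was lost when any WT liver, Hom replicate 2 or Hom replicate 3 was left out (adjusted p between 0.083 and 0.14). The lower genes included the circadian repressor Nfil3 (-1.96 ± 0.26, adjusted p = 0.00188) and the stress factors Atf5 (-0.97 ± 0.14, adjusted p = 0.00223), the most abundant of the list at 438 CPM in WT and 223 in Hom livers, and Atf4 (-0.67 ± 0.15, adjusted p = 0.0122). The call on Atf4 was lost with library size alone (-0.22, adjusted p = 0.344). Atf6 (-0.42) and Crem (-0.36) were lower with TMM but above 0, at 0.031 and 0.087, with library size alone, and the call on Crem was also lost without WT replicate 1, WT replicate 2, Hom replicate 2 or Hom replicate 3 (adjusted p between 0.075 and 0.11). The JUN partners Atf2 and Atf7 had log2 fold changes of -0.15 and -0.13 and did not pass the test.

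Other immediate-early genes moved in both directions. Of 50 listed 47 were tested, 16 were higher (34.0%) and 5 lower (10.6%), and 26 did not pass, and the median was 0.36 on the log2 scale. Of all tested genes 21.5% were higher and 20.1% lower. With library size alone 24 of the 47 were higher and 3 lower, with a median of 0.80, beside 47.6% higher, 4.65% lower and a median of 0.45 over all tested genes. Without Hom replicate 1 the counts were 15 higher and 3 lower. Among the higher genes the smallest adjusted p was that of Tnfaip3, a brake on NF-kB signalling, which went from 3.61 to 19.2 CPM (2.41 ± 0.22, edgeR adjusted p = 5.86e-04). Klf6, a zinc finger factor, went from 11.7 to 51.6 CPM (2.13 ± 0.22, adjusted p = 8.09e-04), the kinase gene Sik1 from 20.2 to 152 CPM (2.91 ± 0.34, adjusted p = 0.00124), and Hbegf, a ligand of the EGF receptor, from 0.970 to 3.86 CPM (1.99 ± 0.25, adjusted p = 0.00149). Genes of feedback inhibitors were called in both directions. Socs3 (1.42, adjusted p = 0.00303), Dusp2 (1.56, adjusted p = 0.0328) and Dusp5 (1.09, adjusted p = 0.0221) were higher. The calls on Dusp2 and Dusp5 were each lost without WT replicate 2, Hom replicate 2 or Hom replicate 3. Errfi1, Dusp1 and Zfp36 were among the 5 lower genes. Errfi1, which codes for an inhibitor of the EGF receptor and was the most abundant gene of the list, fell from 1842 to 778 CPM (-1.24 ± 0.14, adjusted p = 0.00116). Dusp1, which encodes a phosphatase of MAP kinases, fell from 87.8 to 30.9 CPM (-1.51 ± 0.19, adjusted p = 0.00156), and Zfp36, whose product destabilizes mRNAs with AU-rich elements, fell from 204 to 102 CPM (-1.01 ± 0.14, adjusted p = 0.00200). Klf10 was lower too (-1.60 ± 0.47, adjusted p = 0.0312), and its call was lost with library size alone (adjusted p = 0.067) and without any 1 of the Hom livers (adjusted p between 0.065 and 0.091). WT replicate 2 was its highest liver, and without it the value was -0.87 (adjusted p = 0.035).

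Genes of the kinases and factors that act upstream of the 10 were called in both directions, by TMM in smaller shares than all tested genes. Of 37 listed 36 were tested, 6 were higher (16.7%) and 6 lower (16.7%), with a median log2 fold change of -0.03. Of all tested genes 21.5% were higher and 20.1% lower. With library size alone 20 of the 36 were higher, the median was 0.43, and each of the 6 lower calls was lost. On that scale 47.6% of all tested genes were higher, with a median of 0.45. Map3k1, a kinase that can feed into the JNK pathway, had the smallest adjusted p, going from 13.4 to 49.8 CPM (1.90 ± 0.12, edgeR adjusted p = 2.58e-04). Mapk3, the gene of the kinase ERK1, was higher by 0.77 ± 0.098 (adjusted p = 0.00160). The ERK-activated kinase genes Rps6ka3 (0.76) and Rps6ka4 (0.74) were higher. Map2k2 (-0.62, adjusted p = 0.00298), the most abundant of the list, and Map3k5 (-0.97, adjusted p = 0.0151) were lower by TMM, and with library size alone they stood at -0.18 (adjusted p = 0.207) and -0.50 (adjusted p = 0.071). Map3k5 also missed the threshold without Hom replicate 2 (adjusted p = 0.0504). The other 4 lower calls, among them those on Map3k7, Map2k7 and Map3k11, turned positive with library size alone. The JNK genes Mapk8 and Mapk9 had log2 fold changes of -0.096 and -0.12, and Srf of -0.19, and none of these passed the test.

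Genes known as AP-1 targets were mostly higher. Of 30 listed 27 were tested, 19 were higher (70.4%) and 1 lower (3.7%). Their median was 1.91 on the log2 scale, and leaving out Hom replicate 1 gave 15 higher and 2 lower. Spp1, which encodes osteopontin and also marks cholangiocytes, went from 43.3 to 596 CPM (3.78 ± 0.29, edgeR adjusted p = 3.69e-04). Mmp12, a protease of macrophages, went from 0.344 to 6.78 CPM (4.28 ± 0.33, adjusted p = 3.84e-04), Col1a2, a chain of type I collagen, from 17.8 to 108 CPM (2.61 ± 0.22, adjusted p = 4.88e-04), and Ccl2, a monocyte chemokine, from 1.01 to 5.88 CPM (2.53 ± 0.33, adjusted p = 0.00170). The lower gene was Cdkn1a, which encodes the cell cycle inhibitor p21 and fell from 93.5 to 24.2 CPM (-1.95 ± 0.11, adjusted p = 1.59e-04). The higher genes include matrix, protease and cytokine genes that cells other than hepatocytes also express, and expression alone does not show which factor acted on them.

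Around Myc, the partner and antagonist genes were mostly lower or did not pass the test. Of 13 listed 12 were tested, 1 was higher (8.33%) and 4 lower (33.3%), with a median log2 fold change of -0.29. Mlxipl, which encodes the glucose-responsive factor ChREBP, fell from 454 to 219 CPM (-1.05 ± 0.16, edgeR adjusted p = 0.00274), and the MAX-binding repressor gene Mnt was higher (0.81 ± 0.21, adjusted p = 0.0205), a call lost without WT replicate 2, Hom replicate 2 or Hom replicate 3 (adjusted p between 0.0502 and 0.073). Mxd4 (-0.40), Mxi1 (-0.43) and Zbtb17 (-0.44) were lower with TMM but above 0 with library size alone, at 0.063, 0.019 and 0.0051, and each lost its call without Hom replicate 3. Mxi1 and Zbtb17 also lost it without WT replicate 2 or Hom replicate 2, and Zbtb17 without WT replicate 3. With library size alone 2 genes of the network were higher and 1 lower, with a median of 0.16. Max had a log2 fold change of -0.24 (adjusted p = 0.095), and the log2 ratio of Myc to Max on TPM was -2.38 ± 0.848 in WT and -1.04 ± 0.125 in Hom livers (SD, n = 3), without overlap (exact permutation p = 0.1, adjusted p = 0.175 over 7 ratios). Genes known as MYC targets, 40 listed and tested, gave 3 higher (7.5%) and 10 lower (25.0%), with a median of -0.098. Ccnd2, a cyclin gene, was higher (1.45 ± 0.13, adjusted p = 6.03e-04), as were Nop58 (0.46) and Mcm4 (0.55), whose calls were each lost in 5 of the 6 fits that left out 1 liver, being kept without WT replicate 1 for Nop58 and without Hom replicate 1 for Mcm4. The lower genes with the smallest adjusted p were Nop16 (-0.53), Phb2 (-0.61), Nme1 (-0.56) and Hspd1 (-0.67), and the most abundant gene, Ldha, was lower as well (-0.66, adjusted p = 0.00807). With library size alone 16 of the 40 were higher, each of these lower calls was lost and the median was 0.35. The median over all tested genes moved as well, from -0.0018 to 0.45, and 47.6% of them were then higher. The median of this list lay below that of all tested genes with either scaling.

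**Figure D5:**
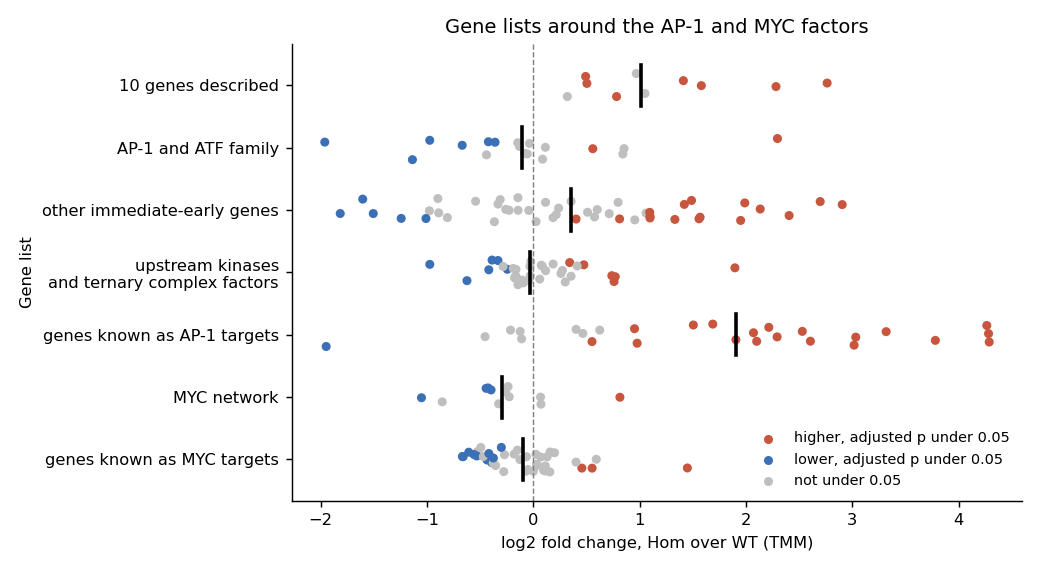
log2 fold change of Hom over WT livers with TMM scaling (x axis) for the tested genes of each list (y axis), with red for higher, blue for lower and grey for not passing an edgeR adjusted p of 0.05, a black bar at the median of the list and a dashed line at the median of all tested genes. The medians of the 10 genes described (1.01) and of the known AP-1 targets (1.91) stand to the right, and those of the MYC network (-0.29) and of the AP-1 and ATF relatives (-0.11) to the left.

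These were whole livers, in which a change in the number of cells of a type and a change in RNA per cell cannot be told apart. Marker genes of several cell types moved with the group. Summed CPM of 20 hepatocyte markers was 165560 to 198669 in WT and 75131 to 101966 in Hom livers, with 14 markers lower and 1 higher. Summed CPM of 12 cholangiocyte markers was 80.7 to 111 in WT and 729 to 966 in Hom livers, with 10 higher. Stellate and fibroblast markers summed to 533 to 650 CPM in WT and 721 to 793 CPM in Hom livers (8 of 14 higher, 2 lower), and proliferation genes to 65.0 to 74.2 and 83.5 to 138 CPM (15 of 20 higher, 1 lower). Macrophage markers overlapped between the groups in their sums, at 291 to 705 CPM in WT and 446 to 628 CPM in Hom livers (4 of 15 higher, 2 lower), with WT replicate 1 the highest, and so did neutrophil and lymphocyte markers, at 13.8 to 113 and 37.8 to 84.3 CPM (2 of 11 higher). Endothelial markers summed to 332 to 443 CPM in WT and 269 to 276 CPM in Hom livers (7 of 13 lower, 1 higher). These counts are by TMM. With library size alone hepatocyte markers were 8 lower and 1 higher, endothelial markers 4 lower and 3 higher, and macrophage markers 1 lower and 8 higher. Stellate and fibroblast markers were then 10 higher and 2 lower, and cholangiocyte markers still 10 higher. DESeq2 gave 8 macrophage markers higher and 2 lower. Alb, which codes for albumin and defines hepatocytes, had the highest mean CPM of the 20 hepatocyte markers. It was lower in Hom livers (log2 fold change -1.26), a call lost without Hom replicate 3 (edgeR adjusted p = 0.064). The part of cell makeup in the differences of the 10 genes was not tested.

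The JUN genes differ from the others in structure, since Jun, Junb and Jund have a single exon, and reads of unspliced RNA or DNA cannot be told from mRNA there. Of single-exon genes as a class 252 were tested, 60 were higher (23.8%) and 26 lower (10.3%), with a median of 0.063 on the log2 scale. Over all 13402 tested genes with a protein-coding transcript 21.6% were higher and 20.3% lower, with a median of -0.0028. Ier3 and Egr1 have 2 exons, Myc has 3, and Fos, Fosb, Fosl2 and Atf3 have 4, so the genes that were higher included genes of 1, 2 and 4 exons. The part of unspliced RNA or DNA in the reads was not tested.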

How the data were processed

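Total RNA of 6 whole livers was sequenced on the DNBSEQ platform. The submitters' processing notes name HISAT2 2.0.4, Bowtie2 2.2.5, RSEM 1.2.12 and the mouse build mm9. The authors deposited estimated counts per gene, FPKM and TPM for each liver. 65.9% of the estimated counts are whole numbers. The deposited group means are stored under crossed names in all 17975 genes and were not used.

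Estimated counts were rounded and tested with the quasi-likelihood test of edgeR 4.0.16 in R 4.3.3, with TMM factors and filterByExpr. Adjustment was by Benjamini-Hochberg over all genes tested, and a gene was called at an adjusted p under 0.05 with no minimum fold change. Ratios and shares used deposited TPM with two-sided exact permutation tests. DESeq2 1.42.0 was an alternative. FPKM served only to give gene lengths for a length correction. The labels name separate livers, and counts of livers of 1 group differed beyond sampling noise, with chi-square over its degrees of freedom of at least 23.8. Promoter sequences came from RefSeq (GRCm38.p6), not the build of the files, and exon numbers from GENCODE for GRCm38.

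The genes described, and the gene lists, were chosen with earlier results of these data known. Named in the text are all 10 genes, Nek7 and Fosl1. From each pathway list, up to 4 higher and 4 lower genes of smallest adjusted p are named, with the most abundant gene, every called AP-1, ATF and MYC network gene, and the 2 genes nearest in profile to each of the 10. Some genes that this rule names are not reported here. Marker lists are given as sums and counts. Atf2, Atf7, Max, Mapk8, Mapk9, Srf, Map2k7, Map3k11, Socs3, Dusp2 and Dusp5 were added after their values were seen.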

Additional observations from a re-analysis of the deposited data

How the results depend on the processing

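Over the alternatives, Jun, Junb, Atf3 and Ier3 passed the test in all 13 and Fos in none, while 0 of the 10 genes were lower in any. The number higher, 7 as reported, was 9 with DESeq2 and with library size alone, 8 with upper-quartile factors, 7 with no filter or with a length correction, and 6 with at least 10 counts in every liver, a filter that removes Fosb. Requiring log2 fold changes of 1 or more in size left 4 of the 10 genes, 1825 genes higher and 575 lower, fewer by construction. Library size alone gave 6574 genes higher and 642 lower. Leaving out 1 liver at a time gave 4 to 6 of the 10 genes, the 4 without Hom replicate 3, beside 1986 to 3057 genes higher and 1767 to 2750 lower, with fewer livers in each fit. The Fos log2 fold change then ranged from -0.027 to 0.70. The log2 ratio of Fosl2 to Fos ranged from -0.27 to 0.55, and the difference in family share from -0.52 to 2.36 percentage points for Junb, -11.1 to 2.81 for Fos and -5.20 to 6.64 for Fosl2, so these 4 had no stable sign, and the cause was not tested.

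Replicate numbers name different mice, and deviations of same-numbered livers correlated at -0.11, -0.056 and -0.049, so they do not pair the samples. A fit with the number as a replicate block gave 8 of the 10 genes higher, adding Myc, with 2383 genes higher and 2214 lower. With 3 livers per group, an exact test cannot go below 0.1, and the few reads of Fosb limit its precision.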

Other observations

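Further genes of the immediate-early and AP-1 target lists were called higher. They were chosen after their values were seen, and each test is edgeR's over all tested genes. Egr2, a relative of Egr1, stood at 0.239 CPM in WT and 1.59 CPM in Hom livers (log2 fold change 2.70 ± 0.55, SE, adjusted p = 0.00881, and 3.37 without WT replicate 3). Egr3 depended on 1 liver: it gave -0.37 (adjusted p = 0.795) over all livers and 2.36 (adjusted p = 0.021) without WT replicate 3. The orphan nuclear receptor gene Nr4a3 (1.95, adjusted p = 0.00408) and Gadd45a, a gene of the DNA damage response (1.57, adjusted p = 0.00353), were called in every fit that left out 1 liver. Timp1, which encodes an inhibitor of matrix proteases, went from 0.559 to 5.66 CPM (3.32 ± 0.45, adjusted p = 0.00206, and 3.96 without WT replicate 3). Ccnd1, the cyclin D1 gene, went from 35.9 to 116 CPM (1.69 ± 0.31, adjusted p = 0.00630).

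The metallothionein genes Mt1 and Mt2 were called higher, and Hom replicate 1 stood far above the other Hom livers. Mt1 was at 977, 153 and 216 CPM and Mt2 at 493, 77.9 and 124 CPM in Hom livers. Without Hom replicate 1 the log2 fold change of Mt1 went from 3.03 (adjusted p = 0.0280) to 1.75 (adjusted p = 0.053), and that of Mt2 from 3.02 (adjusted p = 0.0217) to 1.82 (adjusted p = 0.032). Both calls were also lost without WT replicate 2 or WT replicate 3 (adjusted p between 0.059 and 0.083).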
